A study of Mus musculus with 8 samples.

Results

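The genes described here encode heparan sulfate proteoglycans and the enzymes that build and trim their sugar chains. They were 38 genes taken from textbook knowledge of the pathway, 12 core proteins and 26 enzymes, and 36 of them were among the 22180 genes tested. The list was chosen with earlier results of these data known. Their levels in Sox2-positive cells of mouse medulloblastoma were set against those in Sox2-negative cells of such tumours, which arise in the cerebellum. Both groups came from Patched1+/- mice (CD1 background) carrying a Sox2eGFP reporter (B6 parents), in which loss of a copy of the Hedgehog receptor Patched1 predisposes to this tumour. All mice had been given 3 Gy of ionizing radiation at birth, and tumours were taken at an age of over 70 days, when signs of a brain tumour appeared. Blood cells were removed by their surface proteins, CD45 on white and Ter119 on red cells, and what remained was divided by eGFP in a cell sorter. Each of the 8 arrays, 4 per group, held the RNA of 1 pool of 3 tumours, so single animals were not resolved and the spread given is that between pools. No cells of normal cerebellum were analysed here, so the data compare fractions of the tumour with each other.

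Heparan sulfate is a long sulfated sugar chain attached to a few core proteins. Glypicans are tied to the outer membrane by a lipid anchor, syndecans cross the membrane, and agrin and perlecan are secreted into the matrix. The chain is started by xylosyltransferases, lengthened by the exostosin enzymes, and then modified by N-sulfation, epimerisation and 2-O-, 6-O- and 3-O-sulfation. The pattern of sulfate groups sets which growth factors and morphogens the chain binds, among them FGF, Wnt, BMP and Hedgehog proteins. In the brain these proteoglycans are known for roles in progenitor growth, axon guidance and synapse formation.

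The Sox2-positive cells had higher RNA levels of both extracellular sulfatases, of the chain-starting enzyme Xylt1, and of core proteins of all 3 kinds. They had lower RNA levels of the epimerase Glce, the glypican Gpc2 and the 3-O-sulfotransferase Hs3st5. The arrays hold no measure of protein, enzyme activity or sugar chains. In all, 14 of the 36 measured genes (38.9%) passed the test (limma, adjusted p under 0.05 over all genes), where 8.47% of all genes tested did. Of these, 11 were higher, against a background of 5.96%, and 3 were lower, against 2.52%. As the members were chosen with earlier results of these data known, these shares are only a description. The median log2 difference, Sox2-positive minus Sox2-negative, was 0.06 over the 36 genes and -0.03 over all genes. The typical member thus lay close to the typical gene, and the calls came from a minority of members with larger differences. In bulk RNA of sorted pools, fewer cells of a type and less RNA per cell cannot be told apart.

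As many core proteins as enzymes passed, 7 of each. Of the 12 core proteins, 6 were higher and 1 was lower, with a median log2 difference of 0.28 (58.3% called, against 8.47% of all genes). Of the 24 measured enzymes, 5 were higher and 2 were lower, with a median of 0.03 (29.2% called). The enzymes nevertheless held the largest differences in both directions, from -0.93 for Glce to 4.27 for Sulf2. The difference between the shares of core proteins and enzymes was not tested.

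**Figure D1:**
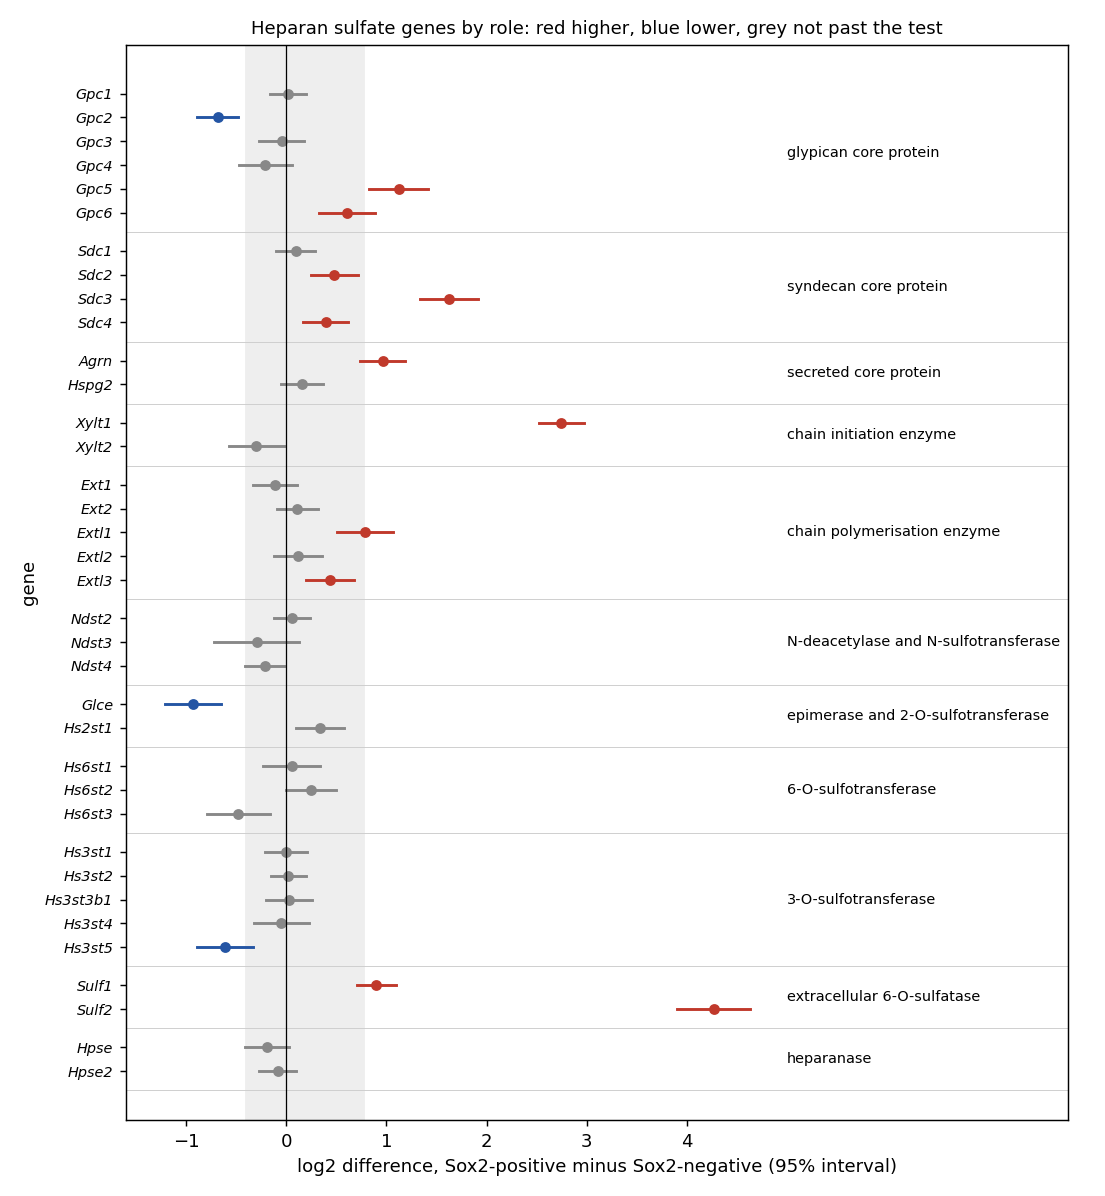
Log2 difference between Sox2-positive and Sox2-negative cells for the 36 measured heparan sulfate genes, in order of role from core proteins to chain-trimming enzymes. Points are estimates from 4 arrays per group, lines are 95% intervals, red and blue mark genes higher and lower at an adjusted p under 0.05, and the grey band holds the central 95% of all genes tested (-0.40 to 0.78); Sulf2 and Xylt1 lie furthest to the right, and Glce furthest to the left.

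The stretches of DNA just before the start of these genes are shown for the members with the largest differences that had an entry in the sequence table: Sulf2, Sdc3 and Gpc5 among those higher, and Glce and Gpc2 among those lower. They are RefSeq windows of 300 bases (250 before and 50 after the annotated start, the outermost start where a gene has several), from build GRCm38.p6, printed 5′ to 3′. Capitals mark GGGCGG (the GC box, bound by Sp factors), CAGCTG (an E-box, the kind of site bound by basic helix-loop-helix factors) and ACAATG (a SOX-type site), each on either strand.
Sulf2, chr2:166155634-166155933, minus strand: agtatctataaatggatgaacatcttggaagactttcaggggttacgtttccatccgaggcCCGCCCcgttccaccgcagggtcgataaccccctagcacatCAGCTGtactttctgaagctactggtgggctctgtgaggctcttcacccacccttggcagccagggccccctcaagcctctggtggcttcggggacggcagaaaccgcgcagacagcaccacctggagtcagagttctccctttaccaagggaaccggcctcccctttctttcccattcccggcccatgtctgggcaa
Sdc3, chr4:130792287-130792586, plus strand: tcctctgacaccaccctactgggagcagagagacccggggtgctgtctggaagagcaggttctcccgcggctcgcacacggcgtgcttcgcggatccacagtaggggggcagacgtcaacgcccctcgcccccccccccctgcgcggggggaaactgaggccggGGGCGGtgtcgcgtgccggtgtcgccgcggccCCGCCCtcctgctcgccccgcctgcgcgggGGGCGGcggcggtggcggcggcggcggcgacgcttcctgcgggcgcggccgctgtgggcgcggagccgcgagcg
Gpc5, chr14:115091965-115092264, plus strand: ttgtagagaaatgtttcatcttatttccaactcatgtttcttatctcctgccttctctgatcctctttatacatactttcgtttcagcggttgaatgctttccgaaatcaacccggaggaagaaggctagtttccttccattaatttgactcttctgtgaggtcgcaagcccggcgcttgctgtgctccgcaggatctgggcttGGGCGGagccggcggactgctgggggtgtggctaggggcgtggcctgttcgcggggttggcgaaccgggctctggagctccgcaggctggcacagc
Glce, chr9:62122560-62122859, minus strand: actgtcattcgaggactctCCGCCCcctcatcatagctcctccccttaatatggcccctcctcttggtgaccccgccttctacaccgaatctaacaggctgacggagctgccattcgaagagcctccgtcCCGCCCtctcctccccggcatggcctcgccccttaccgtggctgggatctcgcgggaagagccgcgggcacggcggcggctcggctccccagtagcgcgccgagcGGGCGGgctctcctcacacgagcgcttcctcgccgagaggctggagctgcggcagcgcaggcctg
Gpc2, chr5:138279888-138280187, minus strand: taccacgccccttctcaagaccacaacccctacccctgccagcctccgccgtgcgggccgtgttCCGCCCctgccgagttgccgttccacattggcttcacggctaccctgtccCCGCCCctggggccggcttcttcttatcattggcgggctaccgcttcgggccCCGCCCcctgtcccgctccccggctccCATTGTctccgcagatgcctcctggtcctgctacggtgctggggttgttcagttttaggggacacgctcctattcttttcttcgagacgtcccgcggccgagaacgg

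Windows were found for 29 of the 38 genes, 28 of them measured. Not every chromosome was covered by the windows used, and all windows here means all that were used. GGGCGG was present in 22 of these 28 windows, in 46.8% of the 16990 windows of genes tested and in 35.9% of all 27025 windows. Their median GC content was 66.8%, and that of the windows of all genes tested was 56.3%. ACAATG was found in 2 of the 28 (Gpc2, which was lower, and Xylt2), in 10.7% of the windows of genes tested and in 12.8% of all windows. AACAAT, a second SOX-type site that overlaps it in AACAATG, was found in 0 of the 28, in 9.3% of the windows of genes tested and in 10.9% of all windows. CAGCTG was found in 3 (Sulf2, Hs3st5 and Hs6st3), in 15.8% of the windows of genes tested and in 16.1% of all windows. TATAAA was found in 3 (Sulf2, Gpc5 and Hs6st2), in 12.9% of the windows of genes tested and in 14.2% of all windows. GACCACCCA, a Gli-type site, was found in 0 members and in 0.2% of either background. Of the 6 higher members with a window 5 held GGGCGG, as did 3 of the 3 lower members and 14 of the 19 without a call. A match is only a match of letters, and a missing one says only that these letters are not in this window.

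The sulfatases Sulf1 and Sulf2 are secreted enzymes that remove 6-O-sulfate groups from finished chains outside the cell. Sulf2 stood at 9.94, 10.84, 10.43 and 10.19 (log2 values, Sox2-positive pools 1 to 4) and at 6.13, 6.24, 6.23 and 5.74 in Sox2-negative pools 1 to 4. All 4 Sox2-positive values were more than 3 log2 units above the highest Sox2-negative value, and only 2 of 22180 genes had a larger log2 difference. The difference was 4.27 (SE 0.17, 95% interval 3.90 to 4.63, limma adjusted p = 5.26e-09), a 19.2-fold higher level. Sulf1 stood at 6.33, 6.61, 6.51 and 6.46 in Sox2-positive and at 5.71, 5.51, 5.55 and 5.53 in Sox2-negative pools. Its groups did not overlap either, with a narrow spread in both. It was 1.87-fold higher (difference of 0.90 log2 units, SE 0.09, limma adjusted p = 2.35e-05). Its Sox2-negative mean of 5.57 lay below 5.80, the upper quartile of 1390 olfactory and vomeronasal receptor genes that served as a guide to dim values, so this fold may be understated. The heparanase Hpse, which cuts the chain, and its relative Hpse2 did not pass. Hpse stood at 5.78, 5.49, 5.54 and 5.74 against 6.0, 5.76, 5.67 and 5.87, groups that overlapped, with a log2 difference of -0.19 (95% interval -0.41 to 0.03). The Sox2-positive mean of Hpse lay in the dim range. Hpse2 had a difference of -0.08 (-0.27 to 0.10).

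Xylt1 and Xylt2 encode the xylosyltransferases that attach the first sugar to the core protein, the start of both heparan sulfate and chondroitin sulfate chains. Xylt1 stood at 9.53, 9.93, 9.80 and 9.50 in Sox2-positive and at 6.89, 6.99, 6.93 and 6.98 in Sox2-negative pools. The Sox2-negative pools lay within 0.10 log2 units of each other, far below every Sox2-positive pool. Xylt1 was 6.68-fold higher (difference of 2.74 log2 units, SE 0.10, limma adjusted p = 3.37e-09). Xylt2 stood at 6.55, 6.22, 6.07 and 6.40 against 6.84, 6.50, 6.36 and 6.74, groups that overlapped. Its difference of -0.30 (95% interval -0.57 to -0.02) did not pass without a block (adjusted p = 0.208). Between pools of the same number it ran from -0.33 to -0.28, and with the pool number as a block it passed (limma adjusted p = 0.0452). The labels do not say that equal numbers share tumours, so calls with this block are alternatives only.

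The exostosin family lengthens the chain. Ext1 and Ext2, which together form the polymerase, did not pass, with log2 differences of -0.11 (95% interval -0.33 to 0.11) and 0.11 (-0.09 to 0.32). Extl3, which adds the sugar that commits a chain to heparan sulfate, stood at 7.32, 7.20, 7.42 and 7.19 against 6.85, 6.90, 7.07 and 6.54. The groups did not overlap, though the lowest Sox2-positive and highest Sox2-negative pools were close. It was 1.36-fold higher (difference of 0.44 log2 units, SE 0.11, limma adjusted p = 0.027), but no longer passed (0.0605 to 0.0864) when pool 1 or 3 of the Sox2-positive or pool 1 or 4 of the Sox2-negative arrays was left out. Extl1, an exostosin-like gene, stood at 5.59, 5.57, 5.71 and 5.16 against 4.60, 4.58, 4.66 and 5.02. It was 1.73-fold higher (difference of 0.79 log2 units, SE 0.13, limma adjusted p = 0.00155). Both group means of Extl1 lay in the dim range, and pool 4 of each fraction lay nearest the other fraction. Extl2 had a difference of 0.12 (95% interval -0.12 to 0.36).

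**Figure D2:**
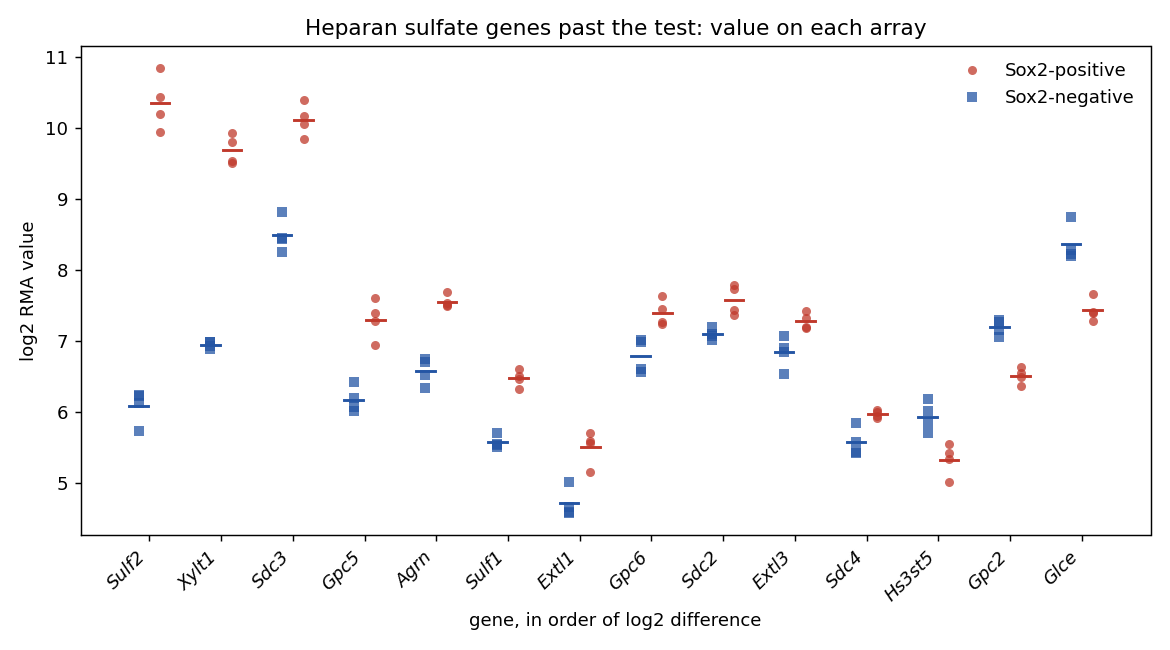
Log2 RMA value on each of the 8 arrays for the 14 heparan sulfate genes past the test, ordered from the largest positive to the largest negative difference. Circles are the 4 Sox2-positive pools, squares the 4 Sox2-negative pools and bars the group means; for each gene the 2 groups do not overlap.

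Enzymes that modify the chain inside the cell were mostly without a call, with decreases at 2 of them. Glce encodes the epimerase that turns glucuronic into iduronic acid, after which 2-O-sulfation can follow. Glce stood at 7.28, 7.41, 7.66 and 7.40 in Sox2-positive and at 8.20, 8.23, 8.75 and 8.28 in Sox2-negative pools. Every Sox2-positive pool was lower, and pool 3 was the highest of each fraction. Glce had a log2 difference of -0.93 (SE 0.13, adjusted p = 0.000318), and stood at 0.525 of its Sox2-negative level, and only 26 genes had a more negative difference. A second, dimmer probe set of Glce had a difference of -0.11 and did not pass (adjusted p = 0.519), and the mean of both gave -0.52 (adjusted p = 0.00293). Hs2st1, the 2-O-sulfotransferase that acts after the epimerase, stood at 6.28, 6.65, 6.49 and 6.29 against 6.05, 6.19, 6.22 and 5.88. Its groups did not overlap, but the difference of 0.34 did not pass without a block (adjusted p = 0.0818) and passed with the pool number as a block (0.0309). The share of all genes whose groups did not overlap was 7.63% in the higher and 6.07% in the lower direction.

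Hs3st5 encodes a 3-O-sulfotransferase, one of the enzymes that add the rarest modification of the chain. It stood at 5.55, 5.02, 5.34 and 5.42 against 6.19, 5.71, 6.01 and 5.84. All Sox2-positive pools were lower, and their mean lay in the dim range. Hs3st5 stood at 0.656 of its Sox2-negative level (log2 difference -0.61, SE 0.13, adjusted p = 0.00875). The other 4 measured 3-O-sulfotransferases had log2 differences between -0.05 (Hs3st4) and 0.03 (Hs3st3b1), with Hs3st1 at -0.003 and Hs3st2 at 0.02, none past the test. Hs3st1 and Hs3st2 lay in the dim range in both fractions, and Hs3st3b1 and Hs3st4 only just above it. A difference in these genes could thus be missed. Hs3st3a1 shared its probe sets with another gene and was not analysed here.

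The 6-O-sulfotransferases place the sulfate groups that the sulfatases remove. None of the 3 passed in the main fit (all arrays, no block and no array weights). Hs6st3 came closest, at 5.38, 5.43, 5.72 and 5.50 against 6.06, 5.59, 6.38 and 5.90. The groups overlapped through Sox2-negative pool 2. The difference was -0.48 (95% interval -0.79 to -0.16, adjusted p = 0.0603), and it passed with the pool number as a block (0.0131), with array weights (0.0144) and without Sox2-negative pool 2 (0.00981). Hs6st1 and Hs6st2 had differences of 0.06 (95% interval -0.23 to 0.34) and 0.25 (adjusted p = 0.26), the latter with means of 4.89 and 4.64 in the dim range. With the block, 5 members in all were lower instead of 3, of which 4 instead of 2 were enzymes.

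The N-deacetylase and N-sulfotransferase enzymes make the first sulfation step, on which the later ones depend. Ndst3, the measured member with the largest difference, stood at 6.90, 6.85, 7.30 and 6.94 against 7.24, 6.72, 7.94 and 7.26. The Sox2-negative pools spread widely (SD 0.50), and the difference of -0.29 (95% interval -0.72 to 0.13) did not pass. It was -0.08 without Sox2-negative pool 3, where Ndst4 (-0.24) had the larger difference, and -0.48 without Sox2-negative pool 2. Ndst2 had a difference of 0.06 and Ndst4, in the dim range in both fractions, one of -0.21 (limma adjusted p = 0.202). Ndst1 was not analysed here.

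Of the 6 glypicans, 2 were higher (against 5.96% of all genes), 1 was lower (against 2.52%) and 3 did not pass. Gpc5 stood at 7.39, 7.28, 7.60 and 6.94 in Sox2-positive and at 6.42, 6.20, 6.07 and 6.01 in Sox2-negative pools. The groups were clearly apart, with Sox2-positive pool 4 nearest the other fraction. Gpc5 was 2.18-fold higher (difference of 1.13 log2 units, SE 0.14, limma adjusted p = 0.000104). Gpc6 stood at 7.24, 7.64, 7.45 and 7.27 against 6.60, 6.99, 6.57 and 7.02, again without overlap. It was 1.52-fold higher (difference of 0.61 log2 units, SE 0.13, limma adjusted p = 0.00871). Gpc5 and Gpc6 are neighbours on chromosome 14, with 0 protein-coding genes between them in GRCm38.p6.

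Gpc2, a glypican of developing neurons, moved the other way. It stood at 6.50, 6.36, 6.55 and 6.64 against 7.27, 7.16, 7.29 and 7.06. Each Sox2-positive pool lay below each Sox2-negative pool, with an SD of 0.12 and 0.11 in the groups. Gpc2 stood at 0.623 of its Sox2-negative level (log2 difference -0.68, SE 0.09, adjusted p = 0.000311). Gpc3 and Gpc4, neighbours on chromosome X, had differences of -0.04 (95% interval -0.27 to 0.18) and -0.21 (-0.47 to 0.06), the latter in the dim range in both fractions. Gpc1 had a difference of 0.02 (-0.16 to 0.20).

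Of the 4 syndecans, 3 were higher (against 5.96% of all genes) and 0 were lower (against 2.52%). Sdc3, the syndecan known best from the nervous system, stood at 9.84, 10.39, 10.16 and 10.06 in Sox2-positive and at 8.44, 8.25, 8.81 and 8.45 in Sox2-negative pools. The lowest Sox2-positive pool was about 1 log2 unit above the highest Sox2-negative pool. Sdc3 was 3.08-fold higher (difference of 1.62 log2 units, SE 0.13, limma adjusted p = 3.37e-06), the largest difference among the core proteins. Sdc2 stood at 7.43, 7.79, 7.73 and 7.36 against 7.20, 7.10, 7.07 and 7.01, and was 1.40-fold higher (difference of 0.48 log2 units, SE 0.11, limma adjusted p = 0.0125). Its groups did not overlap, and Sox2-positive pools 1 and 4 were nearest the Sox2-negative ones. Sdc4, a syndecan of focal adhesions, stood at 5.95, 6.03, 6.0 and 5.91 against 5.58, 5.43, 5.44 and 5.85. It was 1.32-fold higher (difference of 0.40 log2 units, SE 0.10, limma adjusted p = 0.0295). This was the least firm call, as it ended when any array except that of Sox2-negative pool 4 was left out (0.0525 to 0.0904). The Sox2-negative mean of Sdc4 was in the dim range. Sdc1, in the dim range in both fractions, had a difference of 0.10 (95% interval -0.10 to 0.29).

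The secreted core proteins are agrin, which organises the neuromuscular synapse and is also found in brain, and perlecan, encoded by Hspg2, a component of basement membranes. Agrn stood at 7.49, 7.53, 7.69 and 7.50 in Sox2-positive and at 6.71, 6.34, 6.52 and 6.75 in Sox2-negative pools. The Sox2-positive pools were close to each other and all above the Sox2-negative ones. Agrn was 1.96-fold higher (difference of 0.97 log2 units, SE 0.10, limma adjusted p = 3.81e-05). Hspg2 had a difference of 0.16 (95% interval -0.05 to 0.37).

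Whether related genes differed in their change was tested for 8 chosen pairs, those of the sulfatases, xylosyltransferases, Ext1 and Ext2, heparanases, secreted core proteins and 6-O-sulfotransferases, as the within-array difference of both log2 values. For Sulf2 minus Sulf1, this difference was larger by 3.36 in Sox2-positive cells (95% interval 2.92 to 3.81; 3.87 ± 0.27 against 0.51 ± 0.24, mean ± SD, n = 4 each; exact permutation p = 0.0286, two-sided). For Xylt1 minus Xylt2 it was larger by 3.04 (95% interval 2.47 to 3.60, exact permutation p = 0.0286) and for Agrn minus Hspg2 by 0.81 (0.49 to 1.13, exact permutation p = 0.0286). In these 3 pairs the groups did not overlap. Hs6st2 minus Hs6st3 gave 0.72 with the same p, but Hs6st2 lay in the dim range in both fractions and Hs6st3 in Sox2-positive cells, so nothing is read from the pairs with Hs6st2. With 4 arrays per group 0.0286 is the smallest p this test can give, and adjusted over the 8 pairs it became 0.0571, so no pair passed after adjustment. Without Sox2-negative pool 2, the first 3 pairs and Hs6st1 minus Hs6st3 were under the threshold (exact permutation, adjusted p = 0.0457 each). For pairs at the smallest possible p, the adjusted value depends only on how many pairs reach it. The first 3 pairs were already there with all arrays, so nothing more is read from this for them. With all arrays, the 4 pairs not at the smallest p had exact permutation p-values between 0.0857 and 0.457, the smallest for Ext2 minus Ext1 (difference 0.22).

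Between the Sox2-positive pools, the 11 higher members were highest in pool 2 or 3 and lowest in pool 1 or 4. In 7 of them pool 2 was the highest of the 4 Sox2-positive pools and in the other 4 it was pool 3. The lowest was pool 1 in 5 of them and pool 4 in 6. Of all 1321 genes called higher, 90.4% were highest in pool 2 or 3 and 85.9% lowest in pool 1 or 4, against 49.2% and 46.3% of all genes tested, so the members' order was near that of other higher genes. Both pools 2 and 3 lay above both pools 1 and 4 in 8 of the 11 members and in 60.6% of the 1321 genes, while in Gpc5, Extl1 and Extl3 pool 1 lay above pool 2. For Sulf2, pool 2 lay at 0.494 and pool 1 at -0.414 from the mean of the Sox2-positive pools on the log2 scale. Sox2 itself stood at 5.67, 6.07, 6.36 and 5.68 in these pools, with pools 2 and 3 above pools 1 and 4. In Sox2-negative pools Sox2 stood at 4.05, 4.60, 4.49 and 4.04, and the log2 difference was 1.65 (limma adjusted p = 2.53e-05). The Sox2-negative mean of 4.3 lay in the dim range, so this difference may be understated. The ordering of the Sox2-positive pools was noticed in the data and has no test.

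**Figure D3:**
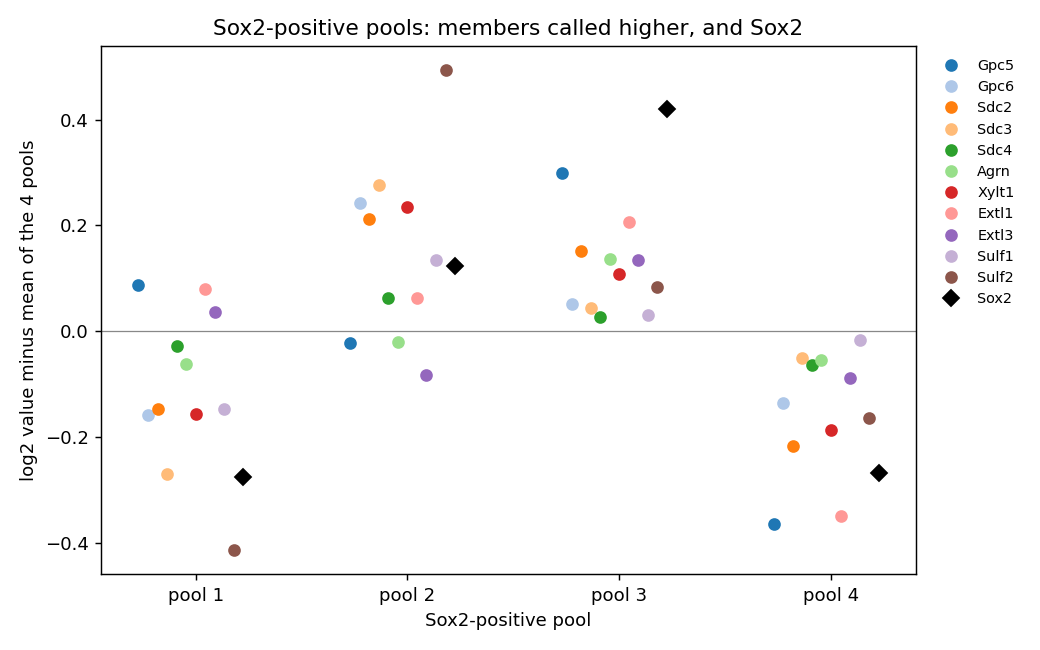
Deviation of each Sox2-positive pool from the mean of the 4 Sox2-positive pools (log2 units) for the 11 heparan sulfate genes called higher and for Sox2 (black diamonds). Points of pool 3 lie above 0 for all of these genes and those of pool 4 below 0, with Sulf2 spreading most, from -0.414 to 0.494.

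Markers of several cell types differed between the fractions. Over all genes tested, 5.96% were higher and 2.52% lower. All 8 oligodendrocyte progenitor markers (Olig1, Olig2, Pdgfra, Cspg4, Sox10, Gpr17, Bcas1 and Lhfpl3) were higher, and their summed linear signal was 4125 to 6238 in Sox2-positive and 845 to 991 in Sox2-negative pools. Within the Sox2-positive pools the sum, which bright genes dominate, was 4125, 6238, 5512 and 4748, highest in pools 2 and 3. Not every marker had this order. In Olig1, Olig2, Pdgfra and Lhfpl3 both pools 2 and 3 lay above pools 1 and 4. In Cspg4, Sox10, Gpr17 and Bcas1 pool 4 lay above pool 3 (for Sox10, 8.01 against 7.88). The astrocyte sum was 1845, 1744, 2533 and 1518 and the mature oligodendrocyte sum 537, 1587, 646 and 1013, in another order of pools. Of 8 astrocyte markers 5 were higher (summed signal 1518 to 2533 against 874 to 1034), and of 7 mature oligodendrocyte markers 3 were (537 to 1587 against 401 to 481). All 8 genes listed as granule neuron progenitor markers (Atoh1, Zic1, Zic2, Pax6, Barhl1, Neurod1, Mycn and Gli1) were lower. Their summed signal was 2064 to 2341 against 3597 to 4526. The part of these cell types in the heparan sulfate genes was not tested. Of 8 endothelial, 8 meningeal fibroblast and 8 microglia and macrophage markers, 0 passed in the limma test (1, 0 and 1 at an unadjusted p under 0.05), and their summed signals overlapped between the fractions. Both means lay in the dim range for 6, 4 and 6 of them, so a difference in these cell types could be missed. Of 8 mural cell markers only Rgs5, named here after its values were seen, was higher (log2 difference 0.37, adjusted p = 0.0174).

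Genes that supply the chain's building blocks were partly higher. Of 11 genes for the linker sugars and precursors, 4 were higher and 0 lower (36.4%, against 8.47% of all genes), with a median log2 difference of 0.19. Ugdh, which makes the glucuronic acid donor, stood at 6.89, 7.91, 7.48 and 7.40 against 6.20, 6.62, 6.20 and 6.35, and was 2.11-fold higher (adjusted p = 0.00116). Papss1, which makes the sulfate donor, stood at 6.19, 6.63, 6.59 and 6.35 against 5.95, 5.77, 5.75 and 5.72, and was 1.56-fold higher (adjusted p = 0.00172). In both genes the groups did not overlap, and Sox2-positive pool 1 was the lowest of its fraction. Fam20b, the kinase that phosphorylates the linker xylose, was 1.47-fold higher (adjusted p = 0.0167), but not past the test once Sox2-negative pool 1 or 4 was left out (0.0572 and 0.0549). Ugp2, which makes UDP-glucose, was 1.39-fold higher (adjusted p = 0.0413), and it lost this call in 8 of 16 alternatives (0.0523 to 0.122), among them leaving out Sox2-positive pool 2 or 3 or any Sox2-negative pool. The other 7 genes, among them the linker-building enzymes, did not pass.

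Among genes of lysosomal breakdown and other carriers of the chain, 1 each was higher. Of 7 measured breakdown genes, 1 was higher and 0 lower (14.3%, against 8.47% of all genes), with a median of 0.34, and 4 were under an unadjusted p of 0.05. That gene, Idua, the lysosomal iduronidase, was 1.29-fold higher (difference of 0.36 log2 units, SE 0.09, limma adjusted p = 0.0182), and it did not pass when the array of Sox2-positive pool 3 (0.0634) or Sox2-negative pool 1 (0.0548) was left out. Of 5 other proteins that can carry heparan sulfate, only Srgn, a proteoglycan of secretory granules, was higher (20.0% of the list), at 1.45-fold (adjusted p = 0.00962), with a Sox2-negative mean in the dim range.

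Chondroitin sulfate chains grow from the same linker. Of 13 measured genes of their synthesis, 2 were higher and 0 lower (15.4%, against 8.47% of all genes), with a median of 0.19. Chst11, a chondroitin 4-O-sulfotransferase, stood at 8.97, 9.51, 9.00 and 9.00 in Sox2-positive and at 6.97, 7.15, 6.86 and 6.50 in Sox2-negative pools. Every Sox2-positive pool was far above every Sox2-negative pool. It was 4.75-fold higher (difference of 2.25 log2 units, SE 0.15, limma adjusted p = 3.98e-07). Ust, a sulfotransferase that adds 2-O-sulfate to uronic acids of chondroitin and dermatan sulfate, was 1.55-fold higher (adjusted p = 0.00175). The other 11, among them the enzymes that lengthen chondroitin chains, did not pass.

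**Figure D4:**
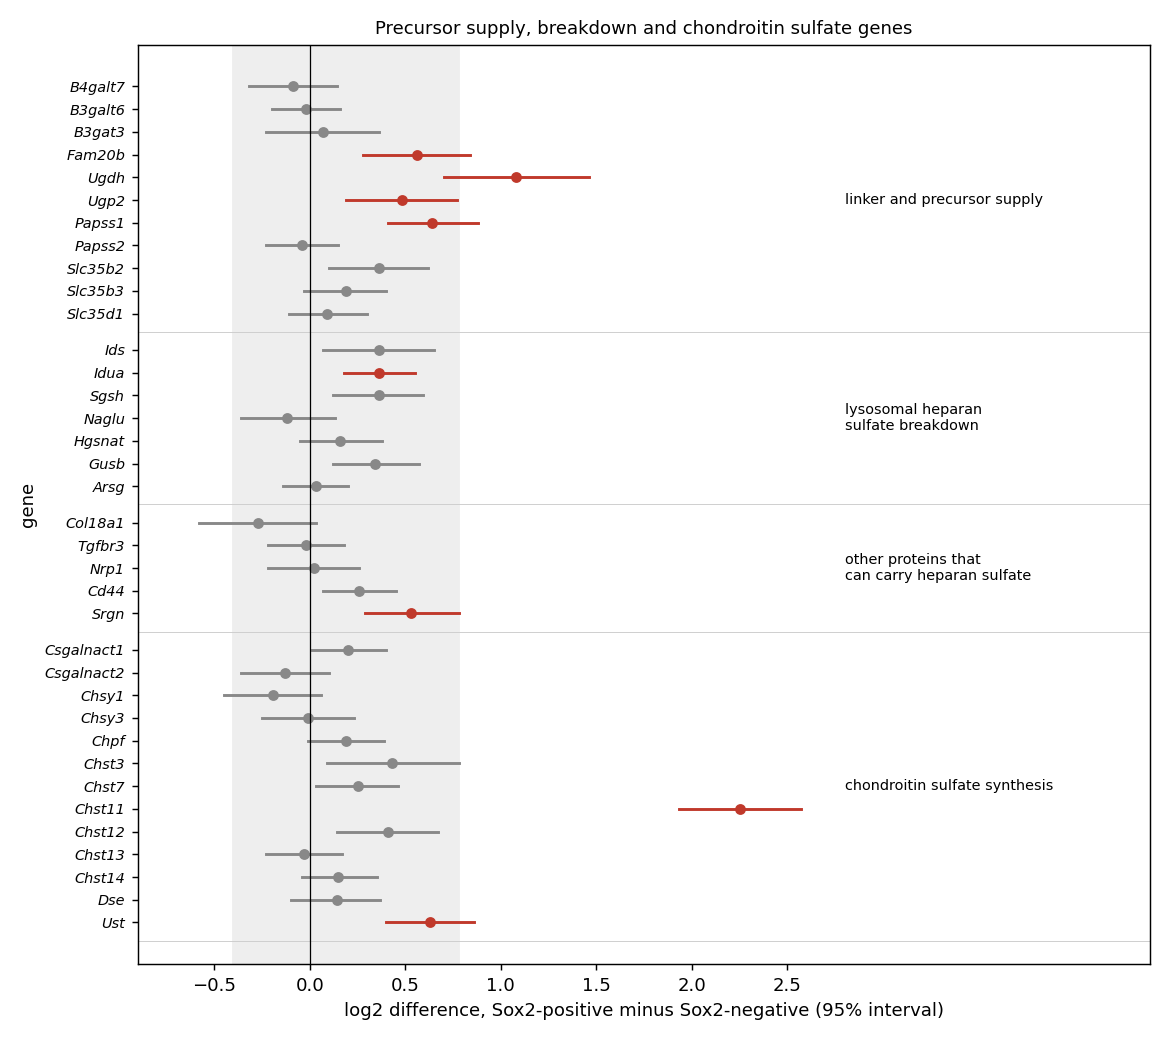
Log2 difference between Sox2-positive and Sox2-negative cells for genes of linker and precursor supply, lysosomal breakdown, other proteins that can carry heparan sulfate, and chondroitin sulfate synthesis. Points are estimates from 4 arrays per group, lines are 95% intervals, red marks genes higher at an adjusted p under 0.05 and the grey band holds the central 95% of all genes; Chst11 (2.25) and Ugdh (1.08) lie furthest to the right.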

How the data were processed

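RNA of sorted tumour cells was measured on Affymetrix arrays. The authors deposited 1 log2 value per probe set and array. The submitters' processing notes name RMA and Affymetrix Expression Console 1.2.0.20. RMA corrects background, normalizes arrays to a common distribution and compresses differences of dim genes. That they are log2 was inferred from their range (2.51 to 13.6). Genome build and annotation version were not given in the sources used here. Of 41345 probe sets, 23521 had 1 gene symbol in the platform annotation, and 23328 of these matched a RefSeq gene (GRCm38.p6, used for names, neighbours and promoter windows). For each gene the probe set with the highest mean over 8 arrays was taken, which left 22180 genes, with no filter on dim ones.

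The comparison was a two-sided test in limma 3.58.1 (R 4.3.3) with group as the only term, with Benjamini-Hochberg adjustment over all genes and a threshold of 0.05. On 10 simulated data sets with the spread of this comparison (22180 genes, 200 changed) the fit recovered 50% of log2 changes of 0.5, 94% of 1 and 99.7% of 2. The simulated noise was independent between genes. In the data 8.47% of genes were called, and recovery depends on how many genes change, so these rates are a rough guide. The number of arrays limits the precision. Pools of both fractions carry the numbers 1 to 4 in the labels, which do not say whether a number marks shared tumours. Deviations from group means correlated at 0.164, 0.114, 0.177 and 0.241 between equal numbers (highest between unequal ones 0.161). The 0.114 of pool 2 lay below the 0.161 of Sox2-positive pool 3 with Sox2-negative pool 2. It also lay below the 0.137 of Sox2-positive pool 1 with Sox2-negative pool 4. Shared tumours are thus not established, and a fit with the number as a block is only an alternative. Other alternatives were leaving out each array, quantile normalization, median centring, array weights, a variance trend, a robust variance prior, the mean of a gene's probe sets, and leaving out dimmer genes. Values of each array were given for members past the test or, where none of a role passed, mainly for the one with the largest difference, and from each supporting list up to 4 genes past the test were named. Members, lists and rules were chosen with earlier results of these data known.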

Additional observations from a re-analysis of the deposited data

Results flagged for a closer look

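Among 90 sets of 4 arrays (each gene described, in each fraction), 3 held an array that stood apart from its group, with a gap to the next one above Dixon's 95% critical value for the share of the range, and chance gives about 1 in 20 such sets. Glce stood at 8.75 in Sox2-negative pool 3, where the other Sox2-negative pools were between 8.20 and 8.28, and without that pool its log2 difference was -0.80. Ndst4 stood at 5.27 in Sox2-negative pool 2, where the others were between 5.0 and 5.04. Chst11 stood at 9.51 in Sox2-positive pool 2, where the others were between 8.97 and 9.00.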

How the results depend on the processing

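Of the 14 genes past the test, 12 kept their direction and call in each of the 16 alternatives that tested them, and Sdc4 and Extl3 lost the call when single arrays were left out, as given above. With the 8 arrays left out in turn, 9 to 10 members were higher and 3 to 4 lower. With the replicate block, 5 members and 4 enzymes were lower instead of 3 and 2, and apart from Xylt2, Hs2st1 and Hs6st3 the block changed no call of a member. With dimmer genes left out, 25 members were tested and 1 enzyme was lower, since Hs3st5 was not among them. The direction of 7 members near 0 turned: with quantile normalization Gpc1 was at -0.03 and Hs3st1 at 0.04, and with array weights Gpc3 was at 0.002. Without single arrays, log2 differences ran from -0.004 to 0.07 for Gpc1, from -0.10 to 0.04 for Gpc3, from -0.07 to 0.13 for Hs6st1, from -0.06 to 0.06 for Hs3st1, from -0.01 to 0.05 for Hs3st2, from -0.02 to 0.13 for Hs3st3b1 and from -0.11 to 0.07 for Hs3st4. For the pairs, they ran from 3.24 to 3.45 for Sulf2 minus Sulf1, from 2.92 to 3.17 for Xylt1 minus Xylt2, from 0.70 to 0.88 for Agrn minus Hspg2, from 0.38 to 0.73 for Hs6st1 minus Hs6st3 and from 0.50 to 0.88 for Hs6st2 minus Hs6st3. These 5 pairs, the last with a gene dim in both fractions, passed only without Sox2-negative replicate 2 (exact permutation, adjusted p = 0.0457 each). There all 5 reached the smallest p the test can give, and the number of such pairs alone sets this adjusted value. The causes of the other changes between settings were not tested. Higher genes made up 70.3% of all calls, and 60.2% after quantile normalization, which left the members' counts at 11 and 3.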
